A study of Mus musculus with 6 samples.

Results

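The genes described here move ions, acid, base and water across the colonic epithelium. They were chosen by name as carbonic anhydrases, sodium, chloride, bicarbonate and potassium transporters and channels, aquaporins, carriers of short-chain fatty acids and genes of mineralocorticoid control. All 35 listed genes were found among the 28500 genes of the expression table, and all 35 passed the filter on low counts that left 17900 genes for testing. Libraries of messenger RNA were made from the colon epithelium of 3 Ube2f_dIEC and 3 Ube2f_flox mice, all labelled as males 8 weeks old that drank normally and had received no dextran sulfate sodium (DSS) or other drug. Ube2f_dIEC stands for Ube2fΔIEC in the labels, where it is called KO, and Ube2f_flox stands for Ube2fflox, called WT. Ube2f encodes an E2 enzyme that passes the ubiquitin-like protein NEDD8 to cullins. The comparison asks how the unchallenged epithelium differs when this enzyme is deleted in intestinal epithelial cells. The driver of the deletion, the age at which it starts and whether the mice were littermates are not given in the sources used here, and no other control genotype was analysed. Cells had been released from colon pieces with EDTA and strained, so the samples span all epithelial cell types along the pieces taken and may hold other mucosal cells.

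Surface colonocytes absorb salt by pairing sodium/proton exchange with chloride/bicarbonate exchange at the luminal membrane, and carbonic anhydrases supply the proton and the bicarbonate from carbon dioxide and water. In the distal colon aldosterone adds sodium uptake through the epithelial sodium channel (ENaC), and the basolateral sodium pump drives these steps, with water following the salt. Crypt cells secrete chloride through CFTR, fed by the basolateral sodium-potassium-chloride cotransporter and kept going by potassium channels.

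Total counts per library were 55971362 to 77524693. Levels are compared between libraries in CPM, that is counts set against library size after TMM scaling, and between genes as the authors' FPKM, which is also divided by gene length. Fold changes are log2 Ube2f_dIEC over Ube2f_flox from the edgeR quasi-likelihood fit over all 17900 genes, with their standard error (SE) and Benjamini-Hochberg adjusted p. Ube2f itself was at 17.2, 18.0 and 21.0 CPM in Ube2f_dIEC replicates 1 to 3, against 34.0, 42.1 and 32.1 CPM in Ube2f_flox replicates 1 to 3 (log2 fold change -0.95, SE 0.13, edgeR adjusted p = 0.0923). The genotypes did not overlap, the edgeR value missed the threshold of 0.05, DESeq2 gave an adjusted p of 1.09e-07, and the exons removed are not given in the labels. Ube2f_dIEC replicate 1 goes against its label of male: it held 494 CPM of Xist, where no other library exceeded 1.33 CPM, and 0 counts of Ddx3y, Eif2s3y, Kdm5d and Uty, where 3 counts would be 0.0503 CPM. The log2 fold changes of several genes, the DESeq2 calls and the members without overlap are therefore also given without it. The members' median, their share of negative values and the values of marker lists and ENaC proteases are given only with it. Epcam, which marks epithelium, was at 1141 to 1189 CPM in Ube2f_dIEC libraries and 1294 to 1316 CPM in Ube2f_flox libraries. The 7 listed epithelial markers, Epcam among them, overlapped in sum. They reached 10677 to 12559 CPM in Ube2f_dIEC libraries and 11600 to 12565 CPM in Ube2f_flox libraries. Of the 7, 4 had negative and 3 had positive log2 fold changes. The listed fibroblast and smooth muscle genes summed to 5.36 to 7.03 CPM in Ube2f_dIEC libraries and 2.22 to 6.19 CPM in Ube2f_flox libraries.

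Among the 33 transport genes averaging at least 1 CPM, the fold changes farthest from 0 were those of the luminal carbonic anhydrase Car4, the water channel Aqp8 and the sodium channel subunit Scnn1b, each at lower mean levels in Ube2f_dIEC libraries, with Scnn1b overlapping between genotypes. The chloride-loading cotransporter Slc12a2 and the sodium pump subunit Atp1b1 differed less but in the same direction. None of the 35 had an edgeR adjusted p under 0.05, where 8 of all 17900 genes did (0.0447%). At an unadjusted p under 0.05, 5 of the 35 were lower in Ube2f_dIEC libraries (Car4, Scnn1b, Atp1b1, Aqp8 and Slc12a2) and 0 were higher, against 4.03% lower and 4.15% higher of all genes. DESeq2 called 1 of the 35, Car4, lower, beside 0.664% of all genes called lower. By library values, 6 genes had all 3 Ube2f_dIEC libraries below all 3 Ube2f_flox libraries, where 6.90% of all genes did: Car4, Hsd11b2, Nedd4l, Atp1b1, Aqp8 and Slc12a2. Atp1b3 alone had all Ube2f_dIEC libraries above, where 7.26% of all genes did. The median log2 fold change of the 35 genes was -0.10 (range -0.75 to 0.59), beside -0.00 over all genes tested. A negative log2 fold change was found for 25 of the 35 genes (71.4%), beside 50.0% of all genes.

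Small negative values depend on scaling. When libraries were scaled by their totals alone, the median of all genes was itself 0.15, and 12 of the 35 members were negative, with a median of 0.05. The members' median thus still lay below that of all genes, as it did under TMM (-0.10 beside -0.00). The share of all genes negative with library totals is not given. Car4 and Aqp8 then remained without overlap and lower in Ube2f_dIEC libraries, and Atp1b3 remained higher. Without Ube2f_dIEC replicate 1, 7 of the 35 genes did not overlap on the lower side (11.5% of all genes) and 3 on the higher side (11.7%).

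**Figure D1:**
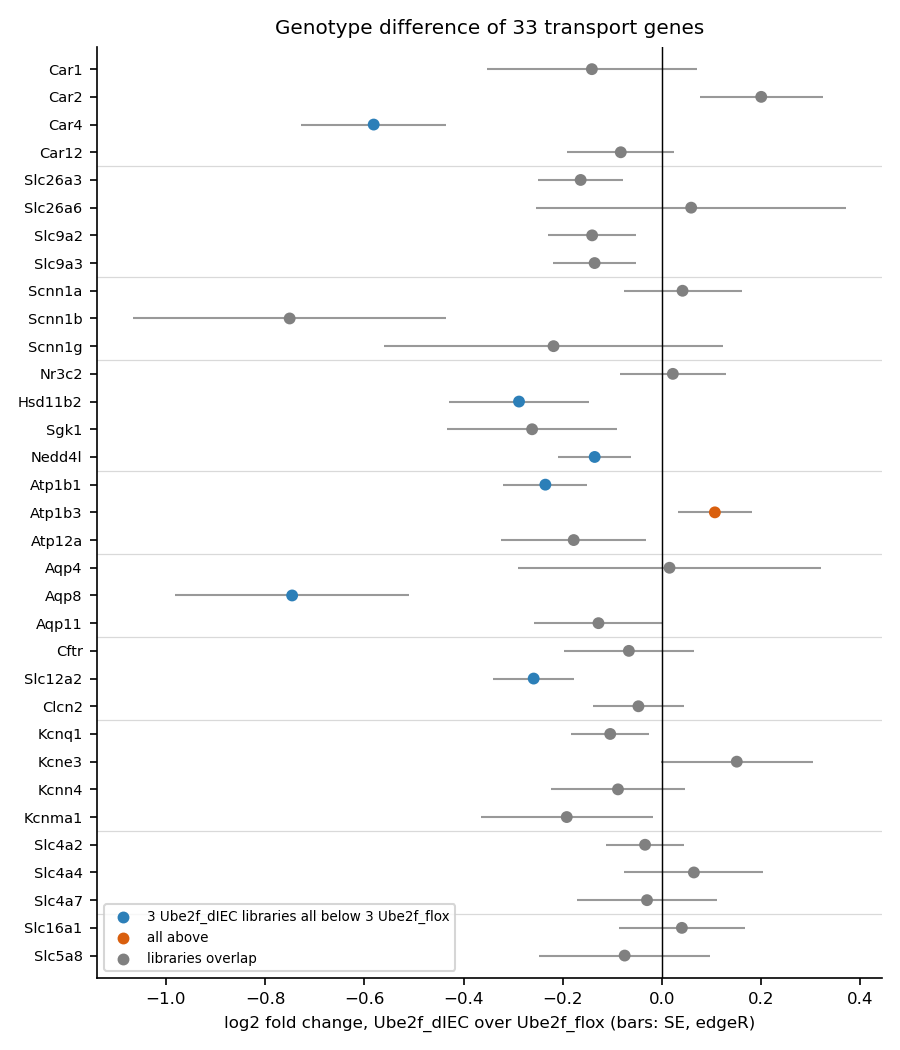
Log2 fold change (Ube2f_dIEC over Ube2f_flox, x axis) of the 33 transport genes that averaged at least 1 CPM, by role from top to bottom; points are edgeR estimates and bars are SE. Aqp8, Scnn1b and Car4 lie farthest to the left, at -0.75, -0.75 and -0.58, and the others lie between -0.29 and 0.20.

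The members spanned the whole range of expression. Per length, Car1 was the most abundant, at 5291 ± 1044 FPKM in Ube2f_dIEC libraries and 5259 ± 1763 FPKM in Ube2f_flox libraries (SD, n = 3 each). It alone took 0.613 to 0.883% of all counts in Ube2f_dIEC libraries and 0.550 to 0.993% in Ube2f_flox libraries. Car2, Atp1b1, Aqp8, Hsd11b2, Car4, Slc16a1 and Slc26a3 followed, in this order of mean FPKM. At the other end, Car7 and Aqp3 lay near the floor of detection, with 0 to 35 and 0 to 24 counts per library. Car7 encodes a cytosolic carbonic anhydrase and Aqp3 a channel for water and glycerol, and neither level could be compared at this depth.

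**Figure D2:**
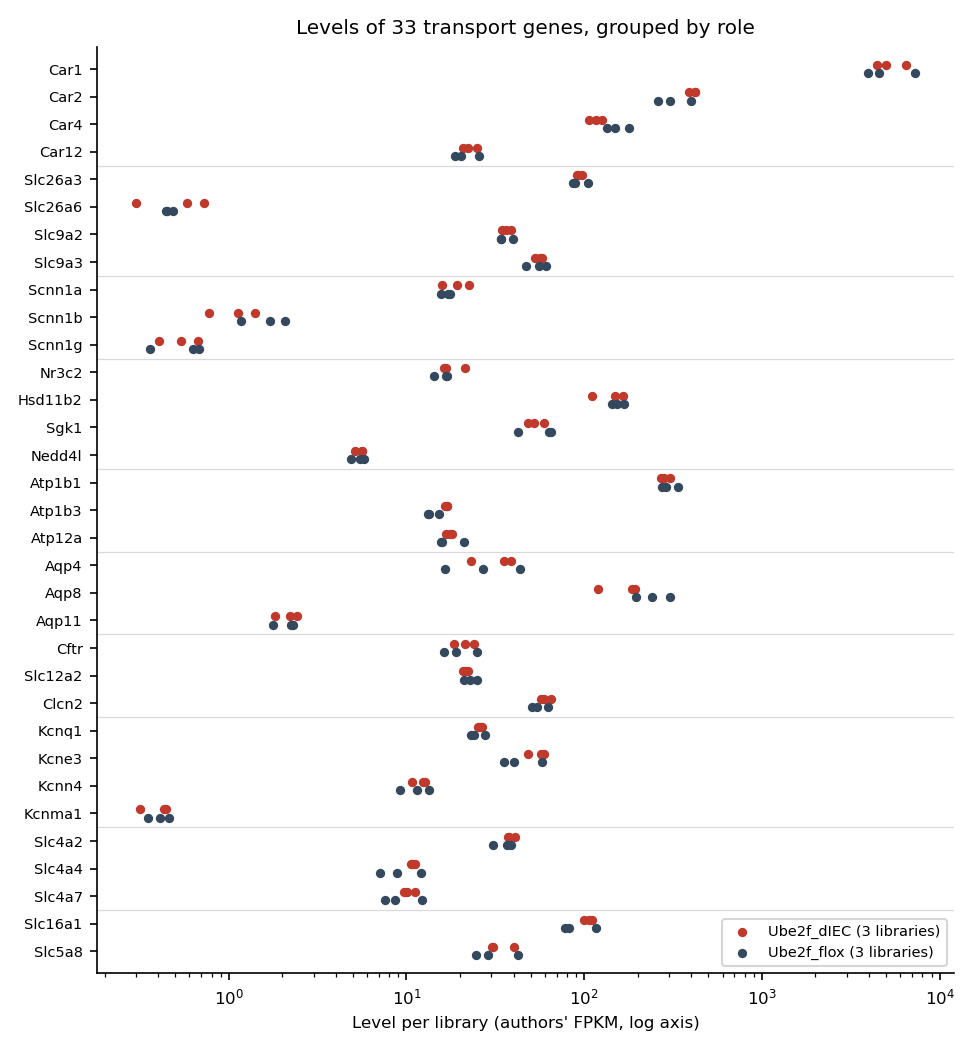
Level of the 33 transport genes averaging at least 1 CPM, as the authors' FPKM on a log axis, grouped by role. Each point is 1 library; mean levels run from 0.397 FPKM in Ube2f_dIEC libraries and 0.408 FPKM in Ube2f_flox libraries for Kcnma1 to 5291 and 5259 FPKM for Car1.

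Carbonic anhydrases differed widely in level, and Car4 alone did not overlap between genotypes. Car1, a cytosolic enzyme and the main carbonic anhydrase of colonic surface cells, was at 6417, 8357 and 5872 CPM in Ube2f_dIEC replicates 1 to 3, against 10075, 6564 and 6133 CPM in Ube2f_flox replicates 1 to 3. The genotypes overlapped, with Ube2f_flox replicate 1 the highest (log2 fold change -0.14, SE 0.21, 95% interval -0.63 to 0.35, edgeR adjusted p = 0.898). Car2, the other abundant cytosolic enzyme, ran from 978.1 to 1073 CPM in Ube2f_dIEC libraries and from 782 to 1074 CPM in Ube2f_flox libraries (log2 fold change 0.20, SE 0.12). Car12, a membrane enzyme of the basolateral side, had a log2 fold change of -0.08 (SE 0.11).

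Car4, an enzyme anchored to the luminal membrane by a lipid tail, was at 216, 255 and 242 CPM in Ube2f_dIEC replicates 1 to 3, against 292, 337 and 438 CPM in Ube2f_flox replicates 1 to 3. All Ube2f_dIEC libraries lay below all Ube2f_flox libraries. The log2 fold change was -0.58 (SE 0.15, 95% interval -0.92 to -0.24), with an edgeR adjusted p of 0.350 and a DESeq2 adjusted p of 0.00561. Without Ube2f_dIEC replicate 1 it was -0.52 (SE 0.17), with an edgeR adjusted p of 0.698 and a DESeq2 adjusted p of 0.147. The DESeq2 call also ended without Ube2f_dIEC replicate 3 (adjusted p = 0.0908) and without Ube2f_flox replicate 3 (adjusted p = 0.109). As a ratio in FPKM, which does not depend on library scaling, Car4 over Car2 was 0.253, 0.321 and 0.278 in Ube2f_dIEC libraries, against 0.335, 0.490 and 0.691 in Ube2f_flox libraries, with no overlap. This pair was chosen after its values were seen and carries no test.

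Levels in bulk RNA cannot tell fewer cells of a type from less RNA per cell. Of 18 markers of absorptive colonocytes, none of them among the members, 17 had negative log2 fold changes (beside 50.0% of all genes). Their median was -0.27, and 5 were lower at an unadjusted p under 0.05 (beside 4.03%). These values rest on TMM scaling, and those with library totals are not given. The list is not free of transport-related genes, since it includes the solute carrier Slc37a2 (-0.85) and Guca2a (-0.25). None of the 18 passed the edgeR test and DESeq2 called 1 lower (beside 0.664% of all genes). Their CPM summed to 18341 to 19806 in Ube2f_dIEC libraries and 22728 to 23421 in Ube2f_flox libraries. The 8 goblet markers summed to 15925 to 16388 CPM in Ube2f_dIEC libraries and 9300.4 to 11062 CPM in Ube2f_flox libraries, a sum carried by Muc2, Fcgbp and Clca1. Of these 8, 5 were higher and 1 was lower at an unadjusted p under 0.05 (beside 4.15% and 4.03% of all genes). DESeq2 called 2 of the 8 higher (beside 0.599% of all genes). Zg16, Tff3 and Spdef had log2 fold changes of -0.36, -0.33 and -0.14. The 15 proliferation genes summed to 778 to 889 CPM in Ube2f_dIEC libraries and 510.4 to 799.8 CPM in Ube2f_flox libraries. All 15 had positive log2 fold changes, as had 8943 of all 17900 genes. At an unadjusted p under 0.05, 9 of the 15 were higher (beside 4.15% of all genes). DESeq2 called 5 of the 15 higher (beside 0.599% of all genes). None of the goblet or proliferation genes passed the edgeR test. No gene of these lists was at 0 in all libraries. The part of these cell type markers in the transport values was not tested.

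The 4 genes of the Car13, Car3, Car1 and Car2 cluster lie within 259 kb of chromosome 3 (GRCm38). Car13 and Car3, which are not among the 35 genes and were picked for their place, had log2 fold changes of -0.04 and -0.06, beside -0.14 for Car1 and 0.20 for Car2. Car4 lies apart, at chr11:84957786-84966044 on the plus strand (GRCm38, GENCODE M21). Its promoter is printed because Car4 was the only member that DESeq2 called. The 250 bases before the start of its RefSeq entry run from chr11:84957504-84957753 (GRCm38.p6, plus strand, 5′ to 3′) and hold no match to the E-box hexamer CACGTG, to the STAT motif TTCNNNGAA or to TATAAA on either strand.
Car4: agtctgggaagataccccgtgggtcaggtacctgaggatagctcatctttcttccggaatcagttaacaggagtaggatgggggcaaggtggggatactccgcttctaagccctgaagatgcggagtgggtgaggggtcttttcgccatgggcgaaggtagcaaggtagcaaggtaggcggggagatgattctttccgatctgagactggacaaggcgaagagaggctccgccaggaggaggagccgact

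Among the luminal exchangers, Slc26a3, the chloride/bicarbonate exchanger mutated in congenital chloride diarrhea in humans, was at 600.0, 639 and 622 CPM in Ube2f_dIEC replicates 1 to 3, against 746, 633 and 706 CPM in Ube2f_flox replicates 1 to 3. The genotypes overlapped through Ube2f_flox replicate 2, and the log2 fold change was -0.16 (SE 0.09, 95% interval -0.36 to 0.03, edgeR adjusted p = 0.673). The sodium/proton exchangers Slc9a2 and Slc9a3 had log2 fold changes of -0.14 (SE 0.09) and -0.14 (SE 0.08), and both overlapped. The FPKM ratio of Slc26a3 to Slc9a3, the partners of electroneutral salt uptake, was 1.63 to 1.74 in Ube2f_dIEC libraries and 1.54 to 1.89 in Ube2f_flox libraries. That of Slc9a3 to Slc9a2 was 1.46 to 1.65 in Ube2f_dIEC libraries and 1.40 to 1.81 in Ube2f_flox libraries. Both ratios overlapped between genotypes and carry no test. Slc26a6, the other anion exchanger listed, was rare, at 0.535 ± 0.214 FPKM in Ube2f_dIEC libraries and 0.460 ± 0.0213 FPKM in Ube2f_flox libraries (SD, n = 3 each).

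The 3 ENaC subunits were unequal in level. Scnn1a, the alpha subunit, averaged 19.3 ± 3.27 FPKM in Ube2f_dIEC libraries and 16.7 ± 0.921 FPKM in Ube2f_flox libraries (SD, n = 3 each). The beta subunit Scnn1b averaged 1.10 ± 0.319 FPKM and the gamma subunit Scnn1g 0.538 ± 0.131 FPKM in Ube2f_dIEC libraries, against 1.65 ± 0.461 and 0.558 ± 0.172 FPKM in Ube2f_flox libraries. Scnn1a thus exceeded Scnn1b by 7.54 to 20.7 times over the 6 libraries, and this ratio overlapped between the genotypes.

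Scnn1a was at 68.0, 96.4 and 84.7 CPM in Ube2f_dIEC replicates 1 to 3, against 80.3, 81.1 and 80.7 CPM in Ube2f_flox replicates 1 to 3. Its Ube2f_dIEC libraries lay on both sides of the Ube2f_flox libraries (log2 fold change 0.04, SE 0.12, 95% interval -0.23 to 0.31). Scnn1b was at 2.11, 3.07 and 3.95 CPM in Ube2f_dIEC replicates 1 to 3, against 3.41, 5.18 and 6.82 CPM in Ube2f_flox replicates 1 to 3. The genotypes overlapped through Ube2f_dIEC replicate 3, and the log2 fold change was -0.75 (SE 0.32, 95% interval -1.48 to -0.02, edgeR adjusted p = 0.594). Without Ube2f_dIEC replicate 1 the Scnn1b value was -0.55 (SE 0.32). Without Ube2f_flox replicate 3 it was -0.49 (SE 0.32). Scnn1g overlapped, at -0.22 (SE 0.34). Scnn1b and Scnn1g lie 96.6 kb apart on chromosome 7.

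Mineralocorticoid control sets the sodium uptake of these cells. Nr3c2, the mineralocorticoid receptor, had a log2 fold change of 0.02 (SE 0.11, 95% interval -0.22 to 0.27). Hsd11b2, which inactivates glucocorticoids so that aldosterone can reach that receptor, was at 209, 315 and 292 CPM in Ube2f_dIEC replicates 1 to 3, against 342, 325 and 329.6 CPM in Ube2f_flox replicates 1 to 3. All Ube2f_dIEC libraries lay below, and replicate 1, the library whose sex markers go against its label, was far below the other two. The log2 fold change was -0.29 (SE 0.14, 95% interval -0.61 to 0.04, edgeR adjusted p = 0.649), and -0.13 (SE 0.08) without Ube2f_dIEC replicate 1. With library totals it was -0.14, and the genotypes overlapped there and in FPKM. Nedd4l, a ubiquitin ligase that removes ENaC from the membrane, was at 112, 114 and 105 CPM in Ube2f_dIEC replicates 1 to 3, against 118, 129 and 117 CPM in Ube2f_flox replicates 1 to 3. It did not overlap between genotypes (log2 fold change -0.14, SE 0.07, 95% interval -0.30 to 0.03, edgeR adjusted p = 0.680), and turned to 0.02 when libraries were scaled by their totals alone.

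Sgk1, an aldosterone-induced kinase that holds Nedd4l off ENaC, ran from 249 to 303 CPM in Ube2f_dIEC libraries and from 240.1 to 395 CPM in Ube2f_flox libraries (log2 fold change -0.26, SE 0.17). Its promoter is printed because it was the only one among the 25 members with a RefSeq window to hold the palindrome bound by corticoid receptors, searched on both strands as AGAACA and TGTNCT with 3 bases of any kind between them. Of 32851 windows of 250 bases, 0.0365% held that motif. The window covers chr10:21993640-21993889 (GRCm38.p6, plus strand, 5′ to 3′), and the capitals mark the match, which starts at position -189 from the transcript start. The same window holds CACGTG at position -246 and no match to TTCNNNGAA or TATAAA, which were found in 7.02% and 12.4% of all windows. Both motifs were found in Sgk1 windows that are not printed. Among the 25 members, Sgk1 was the only 1 with a match to TTCNNNGAA, while TATAAA was also found for Aqp3, Slc26a3 and Slc4a7.
Sgk1: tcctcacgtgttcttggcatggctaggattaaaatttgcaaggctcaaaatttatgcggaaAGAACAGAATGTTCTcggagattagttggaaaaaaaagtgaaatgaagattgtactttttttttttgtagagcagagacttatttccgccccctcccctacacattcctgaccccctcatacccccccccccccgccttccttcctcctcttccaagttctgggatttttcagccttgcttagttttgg

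Of the ATP-driven pumps, Atp1b1, the main beta subunit of the sodium pump, was at 961, 866 and 920.1 CPM in Ube2f_dIEC replicates 1 to 3, against 1153, 1029 and 1053 CPM in Ube2f_flox replicates 1 to 3. All Ube2f_dIEC libraries lay below all Ube2f_flox libraries (log2 fold change -0.24, SE 0.08, 95% interval -0.43 to -0.04, edgeR adjusted p = 0.533), and the value was -0.27 (SE 0.09) without Ube2f_dIEC replicate 1. With library totals it was -0.08, and the genotypes overlapped there and in FPKM. Atp1b3, the alternative beta subunit, was at 41.8, 42.2 and 41.7 CPM in Ube2f_dIEC replicates 1 to 3, against 40.5, 36.4 and 39.9 CPM in Ube2f_flox replicates 1 to 3. Here the Ube2f_dIEC libraries were all above (log2 fold change 0.11, SE 0.07, 95% interval -0.07 to 0.28, edgeR adjusted p = 0.760).

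Taken as a ratio in FPKM, Atp1b1 over Atp1b3 was 17.8, 15.9 and 17.1 in Ube2f_dIEC replicates 1 to 3, against 22.1, 21.9 and 20.5 in Ube2f_flox replicates 1 to 3. The groups did not overlap, the ratio does not depend on library scaling, and it was chosen after its values were seen, with no test. Atp12a, the proton-potassium pump of the luminal membrane, overlapped at -0.18 (SE 0.15), with Ube2f_flox replicate 3 at 105 CPM and every other library between 70.6 and 74.7 CPM.

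**Figure D3:**
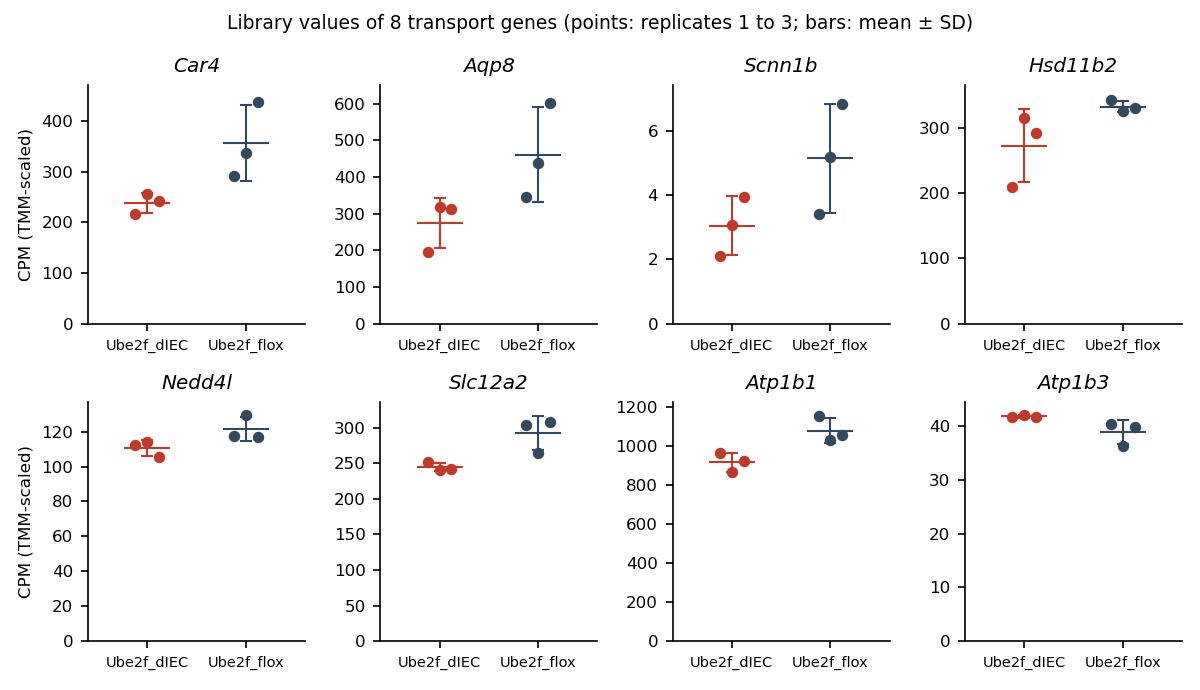
CPM (TMM-scaled) of 8 transport genes, 1 panel a gene, with Ube2f_dIEC libraries left of Ube2f_flox libraries; points are libraries and bars are mean ± SD (n = 3). Scnn1b overlaps through 1 library, while Car4, Aqp8, Atp1b1, Slc12a2, Hsd11b2 and Nedd4l show no overlap on the lower side and Atp1b3 on the higher side.

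Among the water channels, Aqp8 alone did not overlap between genotypes. Aqp8, a channel for water in surface colonocytes, was at 196, 318 and 312 CPM in Ube2f_dIEC replicates 1 to 3, against 345, 438 and 601 CPM in Ube2f_flox replicates 1 to 3. The genotypes did not overlap, but each spread widely. The log2 fold change was -0.75 (SE 0.24, 95% interval -1.29 to -0.20), with an edgeR adjusted p of 0.471 and a DESeq2 adjusted p of 0.404. It was -0.55 (SE 0.21) without Ube2f_dIEC replicate 1 and -0.51 (SE 0.22) without Ube2f_flox replicate 3, the highest library.

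Aqp4, a water channel of basolateral membranes, overlapped fully, at 149 to 249 CPM in Ube2f_dIEC libraries and 127 to 303 CPM in Ube2f_flox libraries (log2 fold change 0.02, SE 0.31). Aqp11, a channel of intracellular membranes, had a log2 fold change of -0.13 (SE 0.13). The FPKM ratio of Aqp8 to Aqp11 was 66.0, 79.7 and 84.4 in Ube2f_dIEC replicates 1 to 3, against 85.0, 107 and 172 in Ube2f_flox replicates 1 to 3.

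Aqp8 lies at chr7:123462291-123468004 on the plus strand (GRCm38, GENCODE M21). Its promoter is printed beside that of Car4, since these were the genes that stayed without overlap and lower in Ube2f_dIEC libraries under TMM, DESeq2 size factors, library totals and the authors' FPKM. The window covers chr7:123462044-123462293 (GRCm38.p6, plus strand, 5′ to 3′), and the capitals mark CACGTG, which starts at position -75 from the transcript start. CACGTG was found in 6.02% of all windows and in those of Aqp8, Atp1b3, Kcnn4, Sgk1, Slc16a1 and Slc9a3 among the 25 members with one.
Aqp8: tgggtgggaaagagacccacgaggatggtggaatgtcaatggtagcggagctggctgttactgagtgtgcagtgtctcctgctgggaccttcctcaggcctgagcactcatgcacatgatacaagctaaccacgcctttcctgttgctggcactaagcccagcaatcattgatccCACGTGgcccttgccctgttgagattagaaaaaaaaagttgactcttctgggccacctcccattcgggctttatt

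Many transport genes differ in level along the colon, so genes of colon position were listed too. The 7 listed genes of proximal position summed to 159 to 169 CPM in Ube2f_dIEC libraries and 178 to 183 CPM in Ube2f_flox libraries, with 2 lower at an unadjusted p under 0.05 (beside 4.03% of all genes). Of the 7 listed genes of distal position, 6 were in the table and summed to 89.9 to 131 CPM in Ube2f_dIEC libraries and 95.03 to 109 CPM in Ube2f_flox libraries. The highest Aqp8, Car4 and Scnn1b levels stood in Ube2f_flox replicate 3, where several marker lists also summed highest. The 10 T and innate lymphoid markers reached 128 CPM there, beside 38.2 to 72.2 CPM in the other libraries. Enteroendocrine markers reached 234 CPM (84.5 to 126 CPM elsewhere) and myeloid markers 47.9 CPM (31.1 to 36.6 CPM elsewhere). B and plasma markers reached 20.4 CPM (5.69 to 11.8 CPM elsewhere) and absorptive colonocyte markers 23421 CPM (18341 to 23078 CPM elsewhere). Goblet markers and proliferation genes instead summed lowest in that library. Goblet markers were at 9300.4 CPM (10938 to 16388 CPM elsewhere) and proliferation genes at 510.4 CPM (525 to 889 CPM elsewhere). The part of position and of these marker lists in the transport values was not tested.

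In the secretory machinery, Slc12a2, the basolateral cotransporter that loads crypt cells with chloride, was at 251, 241 and 242 CPM in Ube2f_dIEC replicates 1 to 3, against 304, 265 and 309 CPM in Ube2f_flox replicates 1 to 3. The 3 Ube2f_dIEC libraries were the lowest (log2 fold change -0.26, SE 0.08, 95% interval -0.45 to -0.07), with an edgeR adjusted p of 0.470 and a DESeq2 adjusted p of 0.247. Without Ube2f_dIEC replicate 1 it was -0.28 (SE 0.09), and with library totals -0.10, where the genotypes overlapped, as they did in FPKM. Cftr, the luminal chloride channel, had a log2 fold change of -0.07 (SE 0.13, 95% interval -0.37 to 0.24). Clcn2, a chloride channel, was at 353, 405 and 381 CPM in Ube2f_dIEC replicates 1 to 3, against 365, 432 and 379.8 CPM in Ube2f_flox replicates 1 to 3, and overlapped (log2 fold change -0.05, SE 0.09).

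Potassium channels overlapped throughout. Kcnq1, the pore of a basolateral channel that recycles potassium, was at 109, 108 and 115 CPM in Ube2f_dIEC replicates 1 to 3, against 126, 109 and 123 CPM in Ube2f_flox replicates 1 to 3 (log2 fold change -0.10, SE 0.08). Kcne3, its partner subunit, was at 109, 88.6 and 108 CPM in Ube2f_dIEC replicates 1 to 3, against 114.5, 82.1 and 78.4 CPM in Ube2f_flox replicates 1 to 3 (log2 fold change 0.15, SE 0.15). Replicate 1 of Ube2f_flox was the highest library for both. Kcnn4 and Kcnma1, calcium-activated channels, had log2 fold changes of -0.09 (SE 0.14) and -0.19 (SE 0.17).

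Basolateral bicarbonate transporters overlapped between genotypes. Slc4a2, a chloride/bicarbonate exchanger, was at 351, 325 and 328 CPM in Ube2f_dIEC replicates 1 to 3, against 359, 351 and 318 CPM in Ube2f_flox replicates 1 to 3 (log2 fold change -0.03, SE 0.08, 95% interval -0.22 to 0.15). Slc4a4, a sodium-bicarbonate cotransporter, was at 125, 132 and 127 CPM in Ube2f_dIEC replicates 1 to 3, against 152, 115 and 100.4 CPM in Ube2f_flox replicates 1 to 3 (log2 fold change 0.06, SE 0.14). Slc4a7, another cotransporter of this family, had a log2 fold change of -0.03 (SE 0.14). The Ube2f_dIEC libraries lay within the range of the Ube2f_flox libraries for Slc4a4.

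For short-chain fatty acids, Slc16a1, a proton-linked monocarboxylate carrier, was at 508, 488 and 465 CPM in Ube2f_dIEC replicates 1 to 3, against 575, 417 and 429.8 CPM in Ube2f_flox replicates 1 to 3 (log2 fold change 0.04, SE 0.13, 95% interval -0.25 to 0.33). Slc5a8, the sodium-coupled carrier, was at 220.4, 166 and 174 CPM in Ube2f_dIEC replicates 1 to 3, against 250.3, 177 and 164 CPM in Ube2f_flox replicates 1 to 3 (log2 fold change -0.08, SE 0.17). Replicate 1 was the highest library of each genotype for both carriers.

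Member levels also differed between libraries of the same genotype. Of the 33 members averaging at least 1 CPM, 18 were highest in Ube2f_flox replicate 1 and 12 were lowest in Ube2f_dIEC replicate 1. No share over all genes is given for these counts, so they do not set the members apart from other genes. Without Ube2f_flox replicate 1, 6 of the 35 members were lower and 4 higher at an unadjusted p under 0.05, beside 8.21% and 8.14% of all genes in that fit. Of the 35, 9 then did not overlap on the lower side (25.7%, beside 17.6% of all genes). On the higher side 6 did not overlap (17.1%, beside 19.0% of all genes).

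**Figure D4:**
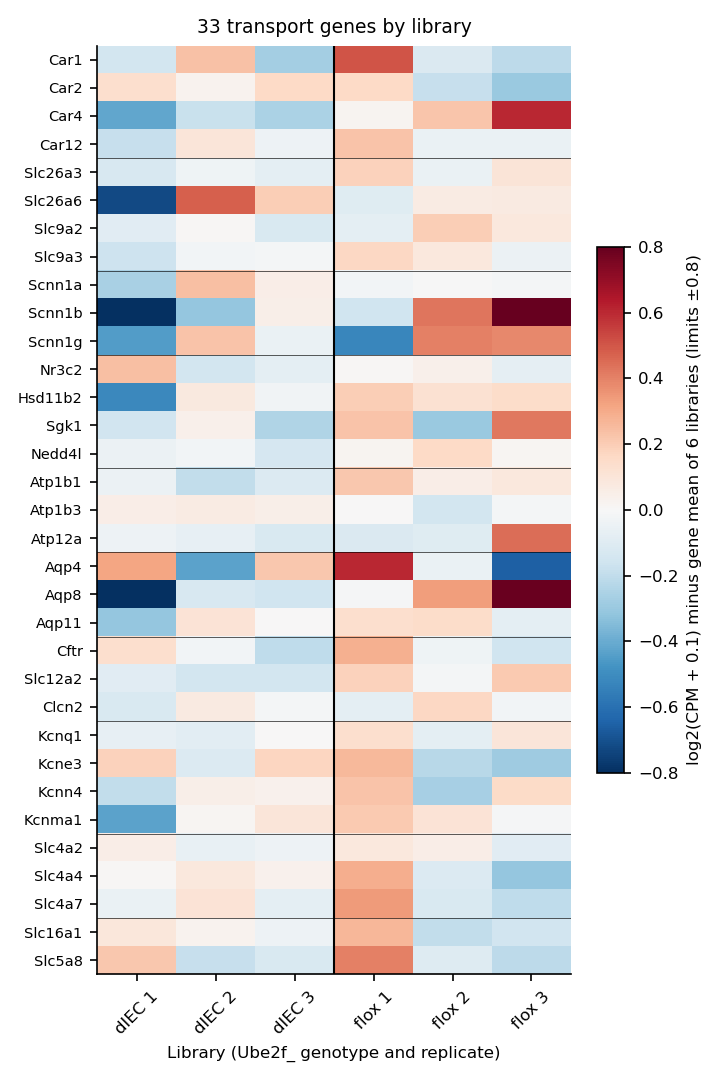
Each transport gene (row) in each library (column), as log2(CPM + 0.1) minus the gene's mean over the 6 libraries, with colour limits at 0.8 either side. Ube2f_flox replicate 1 is high for 18 of 33 genes, and Car4, Aqp8 and Scnn1b are highest in Ube2f_flox replicate 3.

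Another 107 transport genes were listed as the surrounding pathway, of which 96 were in the table and 74 were tested. None passed the edgeR quasi-likelihood test at an adjusted p of 0.05. At an unadjusted p under 0.05, 4 of the 74 were higher and 8 lower in Ube2f_dIEC libraries (5.41% and 10.8%, beside 4.15% and 4.03% of all genes). The median log2 fold change was -0.04. DESeq2, which gave an adjusted p for 78 of the listed genes, called 3 (3.85%, beside 1.26% of all genes): Car8, Clca1 and Nherf1.

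Car8, a carbonic anhydrase relative that lacks the catalytic activity, was at 82.5, 64.3 and 75.3 CPM in Ube2f_dIEC replicates 1 to 3, against 39.0, 44.7 and 45.4 CPM in Ube2f_flox replicates 1 to 3. All Ube2f_dIEC libraries lay above all Ube2f_flox libraries, with a log2 fold change of 0.78 (SE 0.11), an edgeR adjusted p of 0.0923 and a DESeq2 adjusted p of 2.3e-07. DESeq2 called it without any 1 library as well, with adjusted p of 2.24e-08 to 0.000358, and without Ube2f_dIEC replicate 1 the log2 fold change was 0.70 (SE 0.11).

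Clca1, a secreted goblet cell protein that acts on calcium-activated chloride channels and is itself one of the 8 goblet markers, was at 4122, 2241 and 3119 CPM in Ube2f_dIEC replicates 1 to 3, against 776, 1193 and 279 CPM in Ube2f_flox replicates 1 to 3. The genotypes did not overlap (log2 fold change 2.08, SE 0.47, edgeR adjusted p = 0.291, DESeq2 adjusted p = 0.0215). The DESeq2 call ended without Ube2f_dIEC replicate 1 (adjusted p = 0.283), without replicate 2 (adjusted p = 0.079), without replicate 3 (adjusted p = 0.234) and without Ube2f_flox replicate 1 (adjusted p = 0.0589).

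Nherf1, a scaffold that ties Slc9a3 and Cftr to the luminal cytoskeleton, was at 243, 337 and 295 CPM in Ube2f_dIEC replicates 1 to 3, against 377, 384 and 434 CPM in Ube2f_flox replicates 1 to 3. Again the genotypes did not overlap (log2 fold change -0.45, SE 0.12, edgeR adjusted p = 0.388, DESeq2 adjusted p = 0.0389). The DESeq2 call ended without Ube2f_dIEC replicate 1 (adjusted p = 0.224), without Ube2f_dIEC replicate 3 (adjusted p = 0.241), without Ube2f_flox replicate 2 (adjusted p = 0.156) and without Ube2f_flox replicate 3 (adjusted p = 0.455).

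Among the 7 membrane proteases and inhibitors that act on ENaC, 4 had an unadjusted p under 0.05 on the lower side (beside 4.03% of all genes) and 1 on the higher side (beside 4.15%), and 0 passed the adjusted edgeR test. These genes were named after their values were seen. The lower ones were the inhibitors Spint2 (log2 fold change -0.25, SE 0.08) and Spint1 (-0.22, SE 0.09) and the proteases Tmprss4 (-0.20, SE 0.07) and St14 (-0.20, SE 0.08). Tmprss2, another protease, was on the higher side (0.24, SE 0.09). Values this small depend on scaling, and those of these genes with library totals are not given.

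**Figure D5:**
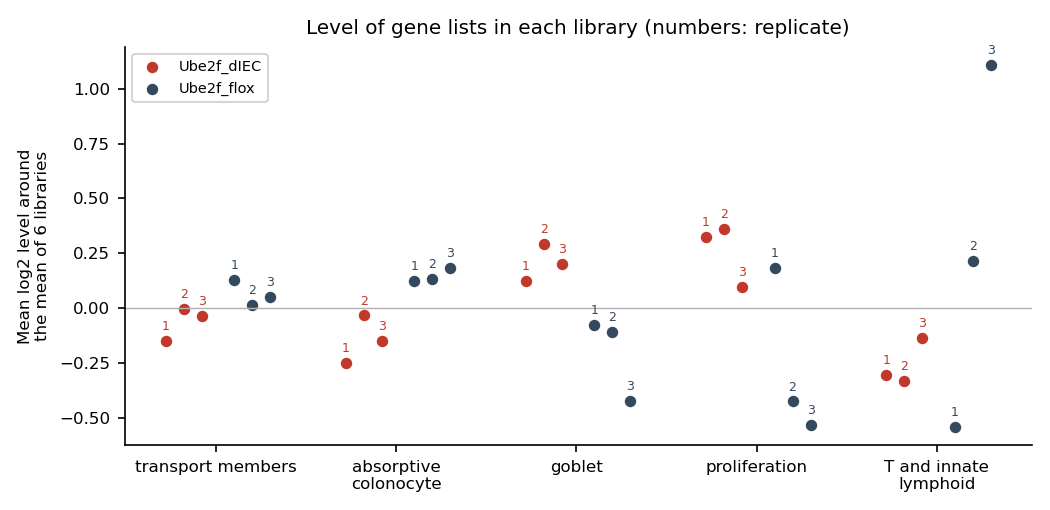
Level of the transport members and of 4 marker lists in every library, as the mean over its genes averaging at least 1 CPM of log2 CPM minus the gene's mean over the 6 libraries. Absorptive colonocyte markers stand at -0.25 to -0.03 in Ube2f_dIEC libraries and 0.12 to 0.18 in Ube2f_flox libraries, and the 33 transport genes stand at -0.15 to -0.00 in Ube2f_dIEC libraries and 0.01 to 0.13 in Ube2f_flox libraries.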

How the data were processed

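Per the labels' protocols, RNA was taken from EDTA-released colon epithelial cells of 6 mice, each labelled as a separate animal, and libraries were sequenced per animal. The deposited table gives raw counts per gene and library as whole numbers, and FPKM values scaled by the authors for gene length and library size. Cutadapt 1.9, HISAT2 2.2.1, StringTie 2.1.6, DESeq2, edgeR and mm10 are named in the submitters' processing notes. How counts were made from alignments, whether strand was kept, and how reads shared between near-identical or overlapping genes were handled are not given in the sources used here. Table coordinates matched GENCODE M21 (GRCm38) exactly for 1.93% of 26774 shared gene IDs, so gene positions are printed from GENCODE M21 by ID. Promoter windows come from RefSeq (GRCm38.p6); 25 of the 35 members had one, and Slc9a2, Aqp4, Hsd11b2, Atp12a, Slc12a2, Nedd4l, Kcnq1, Car1, Scnn1a and Car2 did not.

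All 6 libraries were fitted with edgeR 4.0.16 (R 4.3.3): filterByExpr by genotype, TMM, quasi-likelihood test, 2-sided, Benjamini-Hochberg over 17900 genes, threshold 0.05, no block. Biological variation between replicates came to 24.8%. DESeq2 1.42.0 and limma 3.58.1 served as alternatives, with FPKM tested as log2(FPKM + 1) and log2(FPKM + 0.1). The test scripts were checked on simulated data. Counts per library ran from 55971362 to 77524693, so the floor of 3 counts is 0.0376 to 0.0529 CPM. Floors cover counting error only, because reads carried no molecular identifiers that the sources name. No replicates were merged: chi-square values per degree of freedom between them were 25.3 to 177, far over sampling noise. An exact permutation test of 3 against 3 libraries cannot go below p = 0.1, so none is given. The table held 0 other sample columns.

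Members, pathway genes and marker lists were chosen with earlier results of these data known. Of each role, the member of smallest p and that of highest mean FPKM are given in every library, as is every member with an edgeR or DESeq2 adjusted p under 0.05 or no overlap between genotypes. Pathway genes are named when called by edgeR or DESeq2. Car13 and Car3 and the ENaC proteases and inhibitors were named outside this rule. Pathway lists held 107 genes, of which 96 were in the table, 2 of them matched by gene ID. List levels use genes averaging at least 1 CPM, a choice made after the data were seen.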

Additional observations from a re-analysis of the deposited data

How the results depend on the processing

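No member passed the edgeR or limma adjusted threshold under any setting run with those tools. Counts per library were fewest for Car7 (0 to 35) and Aqp3 (0 to 24). They were also low for Scnn1g (76 to 162), Slc26a6 (105 to 320) and Scnn1b (126 to 387). The parts of counting error and of spread between animals in the intervals were not separated. The members called by DESeq2 numbered 1 with all libraries and 0 to 4 when a library was left out: 0 without Ube2f_dIEC replicate 1, Ube2f_dIEC replicate 3 or Ube2f_flox replicate 3, 1 (Car4) without Ube2f_dIEC replicate 2, 4 without Ube2f_flox replicate 1 (Car2, Car4, Kcne3 and Scnn1b) and 3 without Ube2f_flox replicate 2 (Car4, Sgk1 and Slc12a2). Of all genes, DESeq2 called 1197 without Ube2f_flox replicate 1 and 205 without Ube2f_flox replicate 2, beside 234 with all libraries. Members with an unadjusted p under 0.05 numbered 3 under limma on log2(FPKM + 1) and 3 on log2(FPKM + 0.1), and 4 to 10 in edgeR and 4 to 10 in DESeq2 when a library was left out, with 10 without Ube2f_flox replicate 1 in both. In that edgeR fit, 8.21% of all genes were lower and 8.14% higher at an unadjusted p under 0.05. For the other settings no share over all genes is given. Members without overlap numbered 3 under library totals and 3 in FPKM, where no share over all genes is given. They numbered 8 to 15 when a library was left out, with 15 without Ube2f_flox replicate 1 (9 lower and 6 higher). Without Ube2f_flox replicate 2 they numbered 11 (10 lower and 1 higher). Of all genes, 17.6% then did not overlap on the lower side and 19.0% on the higher side without Ube2f_flox replicate 1. Without Ube2f_flox replicate 2 these shares were 11.3% and 12.4%, and without Ube2f_flox replicate 3 they were 10.5% and 10.8%. Without Ube2f_dIEC replicate 1 the shares were 11.5% and 11.7%. They were 11.0% and 11.6% without Ube2f_dIEC replicate 2, and 11.1% and 11.5% without Ube2f_dIEC replicate 3. The median log2 fold change of the members was 0.051 with library totals, where the median of all genes rose as well. It was 0.041 on log2(FPKM + 1) and 0.060 on log2(FPKM + 0.1). Of the pathway genes, DESeq2 called 3 with all libraries and 1 to 4 when a library was left out (1 without Ube2f_dIEC replicate 1 or 3, 4 without Ube2f_flox replicate 1, and 2 without any other library), and library totals called 1. Of all genes, DESeq2 called 234, limma-voom 5, library totals 18, and limma 3 on log2(FPKM + 1) and 5 on log2(FPKM + 0.1). Leaving out a library gave 0 to 90 calls in edgeR and 156 to 1197 in DESeq2, highest in both without Ube2f_flox replicate 1, beside 8 for edgeR with all libraries (DESeq2: 167, 156 and 166 without Ube2f_dIEC replicates 1, 2 and 3, and 1197, 205 and 162 without Ube2f_flox replicates 1, 2 and 3). DESeq2 without single libraries was chosen after the data were seen, and the cause of these shifts was not tested.

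For the 18 members given in every library, 240 of 270 log2 fold changes under other settings kept their direction and side of the threshold, 1 passed it (Car4 in DESeq2) and 29 changed sign, none of them called. With library totals, which move the median of all genes to 0.15, the log2 fold change was 0.0040 for Car1, 0.019 for Nedd4l, 0.11 for Clcn2, 0.051 for Kcnq1, 0.12 for Slc4a2 and 0.072 for Slc5a8. On log2(FPKM + 1) and log2(FPKM + 0.1) it was 0.041 and 0.041 for Car1, 0.0016 and 0.0016 for Slc26a3, 0.023 and 0.028 for Nedd4l, 0.11 and 0.12 for Clcn2, 0.058 and 0.060 for Kcnq1, 0.13 and 0.13 for Slc4a2, and 0.098 and 0.10 for Slc5a8. When 1 library was left out, edgeR values crossed 0 for 6 members, running from -0.31 to 0.11 for Car1 (above 0 without Ube2f_flox replicate 1), from -0.080 to 0.17 for Scnn1a (below 0 without Ube2f_dIEC replicate 2) and from -0.10 to 0.027 for Clcn2 (above 0 without Ube2f_dIEC replicate 1, at 0.0017, or Ube2f_flox replicate 2). They ran from -0.063 to 0.25 for Slc4a4 (below 0 without Ube2f_flox replicate 3), from -0.045 to 0.20 for Slc16a1 (below 0 without Ube2f_flox replicate 2, or replicate 3, at -0.028) and from -0.21 to 0.13 for Slc5a8 (above 0 without Ube2f_dIEC replicate 2, at 0.0017, or Ube2f_flox replicate 1).

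With the replicate number as a block, 10 of all genes and 0 members were called, and the same 5 members had an unadjusted p under 0.05. Same-numbered libraries deviated together with correlations of 0.0813, -0.0147 and 0.0827, not all over 0.1, so the numbers were not taken to pair animals. Ube2f_dIEC replicates 1 and 3 correlated best with their own number and replicate 2 did not.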

Other observations

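Among the Ube2f_flox animals, the library highest in Aqp8 was the lowest in Aqp4, and the library highest in Car4 was the lowest in Car1. Aqp8 was at 345, 438 and 601 CPM in Ube2f_flox replicates 1, 2 and 3, while Aqp4 was at 303, 193 and 127 CPM in the same libraries. The FPKM ratio of Aqp8 to Aqp4 was 3.11, 8.43 and 5.28 in Ube2f_dIEC replicates 1 to 3, against 4.48, 8.97 and 18.6 in Ube2f_flox replicates 1 to 3. Car4 over Car1 in FPKM was 0.0214, 0.0194 and 0.0262 in Ube2f_dIEC replicates 1 to 3, against 0.0184, 0.0326 and 0.0454 in Ube2f_flox replicates 1 to 3. Both ratios overlapped between genotypes, were picked after their values were seen and carry no test.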
